A study of Homo sapiens with 15 samples.

Results

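The comparison described here is that of KD2, the second JIMT-1 line with a knockdown of HUNK, with the control group CTL. JIMT-1 is an established human HER2-positive breast cancer cell line. The libraries were chosen by their titles, KD2 (n = 4) and CTL (n = 4), which makes 8 of the 15 libraries of the series. The other libraries belong to KD1 (n = 4), the first HUNK knockdown line, and to HSL119 (n = 3), cells given a compound of that code name. All groups were grown in DMEM with fetal bovine serum, per the labels. Knockdown cells were kept in puromycin, a drug used to select cells that carry a resistance vector. The labels do not say how HUNK was knocked down, or whether CTL cells carried a control vector or received puromycin, so the knockdown and the drug cannot be told apart against CTL. KD2 is a single line, and the labels do not say whether its replicates are separate cultures. P-values therefore measure the spread between these libraries, which may be technical.

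HUNK is a serine/threonine kinase of the family related to AMPK, and it was first described in mammary tissue and mammary tumours. HER2, the product of ERBB2, is a receptor tyrosine kinase whose gene is amplified in such tumours, and it signals through the MAPK and PI3K pathways. A knockdown lowers a transcript without removing its gene. HUNK is not on the panel, so its level in KD2 could not be checked in these data.

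The panel held 758 genes, of which 569 were tested, those with a linear value above 20 in 3 or more of the 8 libraries. Recovered counts ran from 1241234 to 1457370 per CTL library and from 1442964 to 1561639 per KD2 library, which sets the precision of low values. On the deposited log2 scale the median gene was 0.42 higher in KD2 than in CTL, and on log2 of the linear value plus 1 it was 0.27 higher. Each library was therefore shifted by its median of ratios, which lowers every difference by 0.45 from the deposited one, and all log2 values and differences below are on that relative scale unless stated. A relative fall can thus be a smaller rise on the deposited scale, and fewer cells and less RNA per cell cannot be told apart in such bulk values. Of 9 markers of HER2-amplified epithelium 4 are on the panel, ERBB2, GRB7, CDH1 and KRT7, and all were above the floor in every library. Values of 12.73, 12.68, 12.65 and 12.65 were measured for CDH1 (E-cadherin) in CTL and 12.56, 12.53, 12.44 and 12.39 in KD2. Its difference was -0.20 (SE 0.06), and 0.25 as deposited. KRT7, a keratin, differed by 0.39 (SE 0.12), with an adjusted p in limma of 0.0219 that was 0.0894 with near-duplicate libraries averaged. Leukocyte, endothelial, fibroblast and adipocyte markers were mostly low, and of 27 on the panel 17 had a mean linear value under 20 in both groups.

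Libraries 1 and 2 and libraries 3 and 4 of CTL, and libraries 1 and 2 of KD2, were near-duplicates: the chi-square of their counts, divided by its degrees of freedom, was 1.13 to 1.45, where counting error alone gives 1. KD2 libraries 3 and 4 differed from each other at 20.04 and from KD2 libraries 1 and 2 at 127 to 145. The first principal component held 77.2% of the variance and placed all CTL libraries on one side and all KD2 libraries on the other, with KD2 libraries 3 and 4 the farther from CTL. The words rose and fell are used where limma's adjusted p was under 0.05 with all 8 libraries, and again with the near-duplicates averaged to 2 CTL and 3 KD2 samples, and where the sign was the same on 5 scalings.

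By that rule 74 genes rose in KD2, 13% of those tested, and 63 fell, 11.1% of those tested, together 24.1%. The counts by the rule in each gene list below stand against these shares. The rises ran from 0.47 to 2.88 on the log2 scale and the falls from -0.47 to -3.01, and 46 rises and 22 falls exceeded 2-fold. In limma with all 8 libraries, all 74 rises but only 40 of the 63 falls were past the threshold on each of the 5 scalings. Among the genes that rose were an activin subunit, a linker histone, tissue factor, vimentin and several DNA repair genes. Among those that fell were the Notch ligand DLL4 and receptor NOTCH3, the repressor SNAI1, the adaptor GRB7 and HLA-B. With all 8 libraries alone, without the further conditions, 162 genes were higher (28.5%) and 163 lower (28.6%). Over all tested genes edgeR called 170 higher and 160 lower, and DESeq2 173 and 164. List counts from all 8 libraries alone stand against these larger numbers. For list counts at an unadjusted p under 0.05 in limma the share of all tested genes is not given, so they show no excess by themselves. The KD2 and CTL libraries did not overlap for any of the 137 called genes, but neither did they for 57.3% of all tested genes.

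These counts rest on KD2 libraries 3 and 4 being separate samples. When both were averaged too, leaving 2 samples in each group, 5 genes were past the threshold in limma, HEG1, VIM, EGLN3, S100A7 and MAML2, all higher and each with an adjusted p of 0.0451. A further 0 genes were lower, although 104 higher and 98 lower genes had an unadjusted p under 0.05, and edgeR called 160 lower genes on the 8 libraries. Without KD2 library 3 the rule called 0 rises and 0 falls (97 and 86 at an unadjusted p under 0.05 with near-duplicates averaged), and without library 4 it called VIM alone (108 and 94). With 7 libraries and no averaging, 144 genes were higher and 141 lower without library 3, and 152 and 143 without library 4.

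The 2 pairs of KD2 libraries differed in how far they lay from CTL. Of the 74 genes that rose, 63 were higher in KD2 libraries 3 and 4 than in 1 and 2, and of the 63 that fell, 54 were lower there. Every called gene lay on the same side of CTL in both pairs. The median rise was 0.90 in libraries 1 and 2 and 1.32 in libraries 3 and 4, and the median fall was -0.67 and -1.03. Between the pairs, 63 tested genes differed by more than 2-fold in KD2 and 3 did in CTL.

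**Figure D1:**
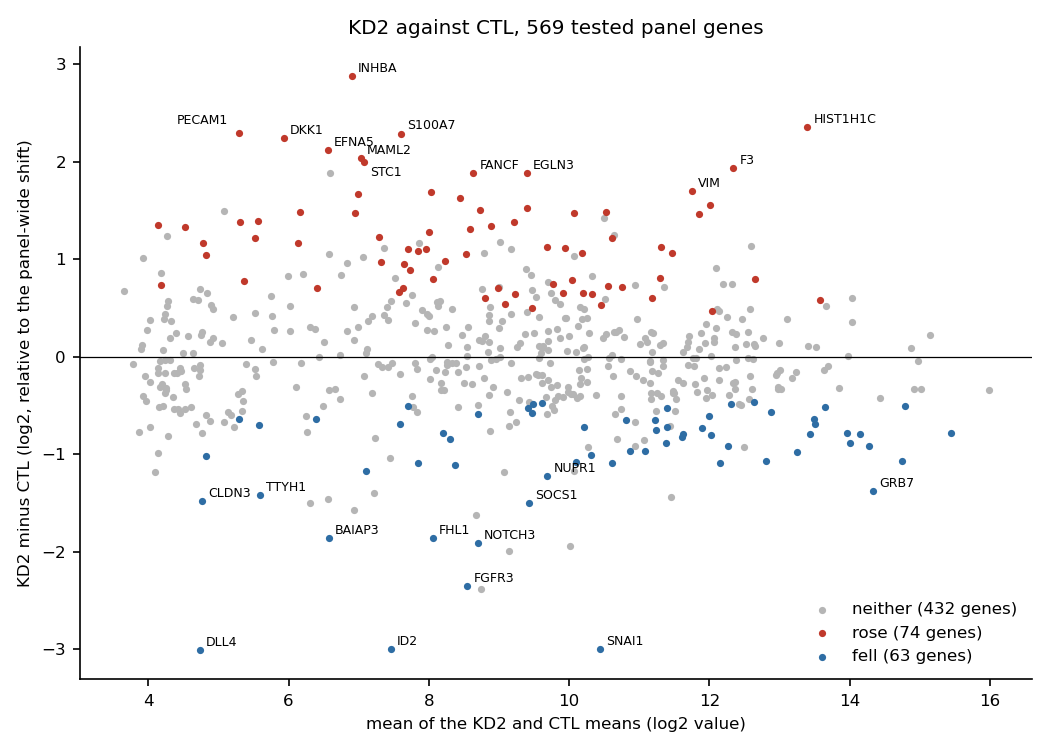
Difference between KD2 and CTL (log2, relative to the panel-wide shift) against the mean log2 value of each of the 569 tested genes, 1 point per gene. Red points are the 74 genes that rose and blue points the 63 that fell, with the 12 largest of each named, from INHBA at 2.88 to DLL4 at -3.01.

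INHBA, the subunit of activin A, had the largest rise. Its log2 values were 5.65, 5.40, 5.21 and 5.58 in CTL and 7.95, 7.85, 8.64 and 8.92 in KD2, libraries 1 to 4 in each group. KD2 libraries 3 and 4 were the highest and no KD2 library came near CTL. The difference was 2.88 (SE 0.25), or 7.37-fold, with an adjusted p of 7.75e-05 in limma and 0.0144 with near-duplicates averaged.

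HIST1H1C, now named H1-2, encodes a linker histone that binds DNA between nucleosomes. It was measured at 12.22, 12.21, 12.23 and 12.23 in CTL and 14.23, 14.23, 14.85 and 14.99 in KD2, so the CTL libraries were within a few hundredths of each other and all KD2 libraries were far above them. It rose by 2.35 (SE 0.18), adjusted p 4.69e-05 in limma. S100A7, or psoriasin, is a small calcium-binding protein of keratinizing and stressed epithelium. Its values were 6.31, 6.51, 6.54 and 6.48 in CTL and 8.57, 8.74, 9.19 and 8.50 in KD2, a difference of 2.29 (SE 0.15). The third KD2 library was the highest and the fourth the lowest, still well above CTL.

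DKK1, a secreted antagonist of the Wnt co-receptors, was measured at 4.93, 4.76, 4.41 and 5.11 in CTL and 6.69, 6.02, 7.46 and 8.04 in KD2 and rose by 2.25 (SE 0.41). STC1, the secreted glycoprotein stanniocalcin, was measured at 6.10, 6.27, 5.78 and 6.13 in CTL and 7.33, 7.24, 9.30 and 8.40 in KD2 and rose by 2.0 (SE 0.43). In both genes KD2 libraries 1 and 2 were the lowest of KD2 and still above CTL. EFNA5, a membrane-anchored ligand of Eph receptors, rose by 2.12 (SE 0.20) from 5.46, 5.51, 5.41 and 5.61 in CTL to 7.37, 7.16, 7.97 and 7.97 in KD2. F3 encodes tissue factor, the receptor that starts the coagulation cascade. Its values were 11.39, 11.40, 11.41 and 11.32 in CTL and 13.02, 13, 13.67 and 13.55 in KD2, a rise of 1.93 (SE 0.16) with the CTL libraries close together.

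MAML2, a coactivator of Notch transcription complexes, was measured at 5.93, 5.90, 6.09 and 6.11 in CTL and 8.24, 7.99, 7.97 and 8.01 in KD2 and rose by 2.04 (SE 0.10). Here library 1 was the highest of KD2 and the other KD2 libraries were nearly equal, unlike most rises. EGLN3, a prolyl hydroxylase that marks hypoxia-inducible factors for degradation, rose by 1.89 (SE 0.13) from 8.34, 8.38, 8.51 and 8.60 in CTL to 10.25, 10.24, 10.73 and 10.15 in KD2. VIM, the intermediate filament protein vimentin of mesenchymal cells, was measured at 10.94, 10.92, 10.92 and 10.83 in CTL and 12.75, 12.74, 12.78 and 12.13 in KD2 and rose by 1.70 (SE 0.14). Its KD2 library 4 lay apart below the others, yet more than 2-fold above CTL. Fibroblasts also make vimentin. The summed linear level of 7 fibroblast markers, with the panel-wide shift left in, was 380 to 437 in CTL and 397 to 480 in KD2. Most of it was PDGFRA, with means of 304 in CTL and 335 in KD2. The rest were low and went both ways, such as FAP (17.3 in CTL, 27.1 in KD2) and PDGFRB (20.3 in CTL, 15.4 in KD2). The part of such cells in the VIM result was not tested.

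PECAM1, an adhesion molecule known from endothelium and platelets, was measured at 3.87, 4.64, 3.86 and 4.19 in CTL and 5.56, 5.44, 7.70 and 7.05 in KD2, a difference of 2.30 (SE 0.51). Its CTL mean lay under the linear floor of 20, at 17.3, so the size is imprecise, and its KD2 libraries ranged widely without reaching CTL. Of the 7 endothelial markers on the panel, PECAM1 was the only one that passed the filter. It passed through KD2, where its linear values were 49.9 to 251.5 against 13.8 to 23.9 in CTL. Being the only tested marker thus followed from its rise and does not set it apart from the others. Their summed linear level with PECAM1 was 78.2 to 103 in CTL and 123 to 355 in KD2. On that linear scale, with the panel-wide shift left in, CDH5 and KDR had KD2 means of 21.5 and 15.4 against 13.1 and 7.71 in CTL. TEK and ROBO4 were slightly higher, at 12.5 and 13.0 in KD2 against 10.2 and 11.9 in CTL. CD34 and CLEC14A were lower, at 7.17 and 14.9 in KD2 against 11.3 and 17.2 in CTL. The part of endothelial cells in the PECAM1 result was not tested.

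The largest falls were in DLL4, SNAI1 and ID2. DLL4, a membrane-bound Notch ligand, was measured at 6.31, 5.90, 6.27 and 6.48 in CTL and 3.70, 3.98, 2.40 and 2.84 in KD2 and fell by 3.01 (SE 0.35), adjusted p 0.00031 in limma. Its KD2 mean lay under the linear floor, at 11.9. SNAI1, a zinc finger repressor of epithelial genes, was measured at 11.87, 11.87, 12 and 11.99 in CTL and 10.31, 10.23, 7.68 and 7.52 in KD2 and fell by 3.0 (SE 0.66). Its KD2 libraries formed separate pairs, with 3 and 4 several-fold lower than 1 and 2 and both pairs below CTL.

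ID2, which blocks the DNA binding of basic helix-loop-helix factors, showed the same split. It was measured at 8.73, 8.92, 9.14 and 9.04 in CTL and 7.18, 7.21, 4.52 and 4.93 in KD2 and fell by 3.0 (SE 0.62), with an adjusted p of 0.00465 in limma that was 0.044 with near-duplicates averaged. FGFR3, a fibroblast growth factor receptor, fell by 2.35 (SE 0.21) from 9.74, 9.79, 9.62 and 9.75 in CTL to 7.69, 7.77, 7.27 and 6.76 in KD2. NOTCH3, a Notch receptor, fell by 1.91 (SE 0.40) from 9.67, 9.72, 9.63 and 9.59 to 8.45, 8.46, 7.51 and 6.53. Library 4 was the lowest of KD2 in both receptors, and CTL stayed within a narrow band.

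FHL1, a LIM domain protein, was measured at 8.96, 9.08, 9.01 and 8.91 in CTL and 7.56, 7.69, 6.77 and 6.49 in KD2 and fell by 1.86 (SE 0.26). BAIAP3, a C2 domain protein of vesicle trafficking, was measured at 7.52, 7.39, 7.61 and 7.48 in CTL and 6.21, 6.44, 5.10 and 4.80 in KD2 and fell by 1.86 (SE 0.36). Libraries 3 and 4 of KD2 were the lowest for both genes. SOCS1, a feedback inhibitor of JAK kinases, was measured at 10.09, 10.13, 10.27 and 10.22 in CTL and 9.17, 9.25, 8.08 and 8.20 in KD2 and fell by 1.50 (SE 0.27). Also among the 12 largest falls were TTYH1, a membrane channel family member, at -1.42 (SE 0.28), and NUPR1, a stress-induced nuclear protein, at -1.23 (SE 0.17).

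**Figure D2:**
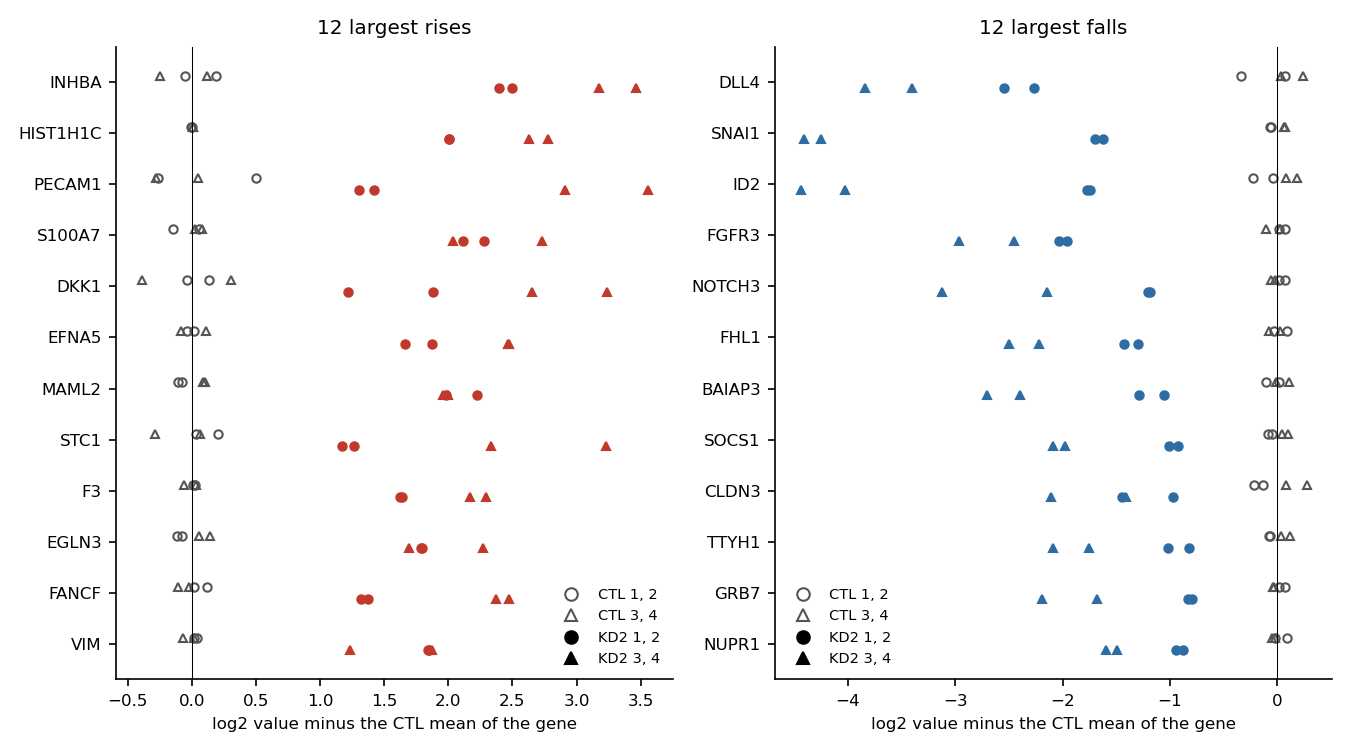
Log2 value of each library minus the CTL mean of the gene, for the 12 largest rises (left) and the 12 largest falls (right). Open symbols are CTL and filled symbols KD2, with circles for libraries 1 and 2 and triangles for 3 and 4. For SNAI1 and ID2 the KD2 triangles lie far below the circles, and for VIM library 4 lies below the other KD2 libraries.

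In the TGF-beta family, ligands bind paired receptor kinases that act through SMAD proteins, and ID2 is a known target of BMP signals. Of 21 tested members 3 rose (14.3%), INHBA, BMP7 and BMPR1A, and ID2 fell (4.76%), shares close to or under those over all tested genes, with a list median of 0.27 against -0.02 over all tested genes. BMP7, a bone morphogenetic protein, was measured at 6.80, 6.53, 6.47 and 6.92 in CTL and 7.61, 7.70, 8.14 and 8.19 in KD2 and rose by 1.23 (SE 0.17). BMPR1A, a type I BMP receptor, was measured at 9.66, 9.72, 9.67 and 9.55 in CTL and 10.63, 10.45, 10.84 and 10.93 in KD2 and rose by 1.06 (SE 0.11). KD2 lay above CTL in every library for both genes, while the groups did not overlap in 57.3% of tested genes.

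Of 17 Wnt pathway genes, DKK1, SFRP1 and LEF1 rose and FZD7 fell, and the list median was -0.27 (but 0.17 on the deposited scale and 0.02 on log2 of the linear value plus 1). CTL and KD2 did not overlap in the called members, which held for every called gene and for 57.3% of tested genes. SFRP1, a secreted protein that binds Wnt ligands, was measured at 12.29, 12.28, 12.21 and 12.20 in CTL and 12.82, 12.75, 13.30 and 13.32 in KD2 and rose by 0.80 (SE 0.14). LEF1, a transcription factor that acts with beta-catenin, rose by 0.96 (SE 0.16), from 7.03, 7.22, 7.39 and 7.06 in CTL to 7.93, 7.86, 8.25 and 8.48 in KD2. FZD7, a Wnt receptor, fell by 0.69 (SE 0.11), but differed by -0.24 as deposited, adjusted p 0.0947 in limma. The members that rose thus included both inhibitors of the pathway and a factor that carries its signal.

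Notch receptors are cut after a neighbouring cell presents a ligand, and the freed part enters the nucleus and binds MAML coactivators. Of 14 tested genes MAML2 rose and DLL4, NOTCH3, NOTCH1 and JAG2 fell, with a list median of -0.34 (but 0.11 on the deposited scale). NOTCH1, a receptor, was measured at 8.72, 8.86, 8.63 and 8.68 in CTL and 8.16, 8.01, 7.79 and 7.54 in KD2 and fell by 0.85 (SE 0.14). JAG2, a ligand, was measured at 6.04, 5.93, 5.97 and 5.75 in CTL and 5.59, 5.25, 4.99 and 5.05 in KD2 and fell by 0.70 (SE 0.16). As deposited the JAG2 difference was -0.26, adjusted p 0.154 in limma. CTL and KD2 did not overlap in either gene, as in 57.3% of tested genes.

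Among 10 FGF signalling genes, SPRY2 rose and FGFR3 fell, with a list median of -0.07 (but 0.37 on the deposited scale and 0.21 on log2 of the linear value plus 1). SPRY2, a feedback inhibitor of receptor kinases, was measured at 6.89, 7.05, 7.49 and 7.17 in CTL and 8.04, 8.07, 8.42 and 8.49 in KD2 and rose by 1.10 (SE 0.16).

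ERBB receptors and their adaptors did not share a direction. Of 6 tested receptors, ligands and adaptors, EGFR rose and the adaptors GRB7 and GRB2 fell, with a list median of -0.43 (but 0.01 on the deposited scale). GRB7, an SH2 adaptor encoded beside ERBB2 and amplified with it, was measured at 15.09, 15.03, 14.99 and 14.98 in CTL and 14.22, 14.19, 13.34 and 12.83 in KD2. It fell by 1.38 (SE 0.29), or 2.6-fold, adjusted p 0.00521 in limma, with libraries 3 and 4 of KD2 the lowest. ERBB2, which encodes HER2, was measured at 12.23, 12.21, 12.14 and 12.21 in CTL and 12.37, 12.33, 12.54 and 12.56 in KD2. Its difference of 0.25 (SE 0.07) had an adjusted p of 0.0148 in limma and 0.101 with near-duplicates averaged, and so did not meet the rule.

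EGFR, the epidermal growth factor receptor, was measured at 10.14, 10.04, 9.96 and 9.91 in CTL and 10.49, 10.46, 10.75 and 10.91 in KD2 and rose by 0.64 (SE 0.11). GRB2, the adaptor that couples receptors to RAS, was measured at 11.59, 11.59, 11.48 and 11.54 in CTL and 10.82, 10.90, 10.95 and 10.92 in KD2 and fell by 0.65 (SE 0.06). Both changes were under 2-fold, with no overlap between the groups, as in 57.3% of tested genes. The ligand EREG (epiregulin) differed by -1.46 (SE 0.32), adjusted p 0.00576 in limma and 0.0757 with near-duplicates averaged, and AREG (amphiregulin) by -0.21 (SE 0.15), adjusted p 0.233 (but 0.23 as deposited and 0.08 on log2 of the linear value plus 1).

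ERK kinases act downstream of HER2 and switch on their own inhibitors. Of 9 MAPK genes SPRY2 rose and ETV4 fell, and the list median was -0.12 (but 0.33 on the deposited scale and 0.17 on log2 of the linear value plus 1). ETV4, an ETS factor that responds to ERK, was measured at 11.78, 11.92, 11.83 and 11.77 in CTL and 10.89, 10.87, 10.98 and 11.04 in KD2 and fell by 0.88 (SE 0.06). Not called were MAPK3 (ERK1) at -0.72 (SE 0.17) and the ERK phosphatase DUSP4 at 0.66 (SE 0.36). MAPK3 missed the rule narrowly, with an adjusted p of 0.00707 in limma and 0.0529 with near-duplicates averaged.

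Of 12 AP-1, MYC and immediate-early genes ID2 was the only member that met the rule in limma. With all 8 libraries alone limma gave 1 higher and 3 lower, against 28.5% and 28.6% of all tested genes. EdgeR gave 1 and 3, and DESeq2 1 and 4. The median was -0.53 (but -0.08 on the deposited scale). MYC differed by 0.13 (SE 0.11) and JUN by 0.60 (SE 0.32), and their adjusted p in limma was 0.33 and 0.131. FOSL1 differed by -0.14 (SE 0.25), but by 0.31 as deposited and by 0.35 with KD2 libraries 3 and 4 alone.

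In the PI3K pathway, PIK3R3 rose and EIF4EBP1 fell among 11 tested genes, and the median was 0.00 (but 0.44 on the deposited scale and 0.29 on log2 of the linear value plus 1). PIK3R3, a regulatory subunit of PI3K, was measured at 6.42, 6.14, 6.07 and 6.0 in CTL and 7.30, 7.28, 8.18 and 8.53 in KD2 and rose by 1.67 (SE 0.29). EIF4EBP1, which holds back cap-dependent translation until mTOR phosphorylates it, was measured at 15.89, 15.84, 15.82 and 15.82 in CTL and 15.33, 15.31, 14.85 and 14.76 in KD2 and fell by 0.78 (SE 0.13). PIK3CA, a catalytic subunit, differed by -0.02 (SE 0.07) (but 0.43 as deposited), and the S6 kinase gene RPS6KB2 by 0.07 (SE 0.11).

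Of 50 tested cell cycle genes 6 rose (12%) and 10 fell (20%), against 13% and 11.1% of all tested genes. Called genes thus lay on both sides, as they did over the whole panel. The list median was 0.00 (but 0.45 on the deposited scale, 0.29 on log2 of the linear value plus 1 and 0.05 after quantile normalization). CENPF, a kinetochore protein, was measured at 10.90, 10.90, 10.86 and 10.91 in CTL and 11.64, 11.64, 11.81 and 11.72 in KD2 and rose by 0.81 (SE 0.06). ASPM, a spindle pole protein, was measured at 9.81, 9.73, 9.76 and 9.82 in CTL and 10.98, 10.84, 11.64 and 11.61 in KD2 and rose by 1.49 (SE 0.19). MELK, a mitotic kinase, rose by 1.12 (SE 0.15) and CDC6, which loads the replicative helicase, by 0.71 (SE 0.07). Every KD2 library was above CTL for these 4 genes, while the groups did not overlap in 57.3% of tested genes.

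UBE2C, a ubiquitin-conjugating enzyme of the anaphase-promoting complex, was measured at 15.33, 15.26, 15.29 and 15.27 in CTL and 14.52, 14.49, 13.94 and 13.91 in KD2 and fell by 1.07 (SE 0.15). PTTG1, or securin, was measured at 13.75, 13.80, 13.74 and 13.68 in CTL and 12.92, 12.93, 12.59 and 12.60 in KD2 and fell by 0.98 (SE 0.09). KIF2C, a kinesin that depolymerizes microtubules, fell by 0.80 (SE 0.13). To complete the list, CDC7 (0.65) and the Ki-67 gene MKI67 (0.47) also rose. The other falls were in CCNA2 (-0.49), CCNE1 (-0.73), CDK1 (-0.78), ORC6 (-0.72), ANLN (-0.80), TOP2A (-0.51) and AURKB (-0.79), all named after their values were seen. Genes of mitosis, such as CENPF against UBE2C, were thus found on both sides. Among members not called, CDK4 differed by 0.22 (SE 0.10), RRM2 by 0.36 (SE 0.14) and CCNB1 by 0.01 (SE 0.08), the last turning to -0.04 with library medians and to -0.11 with KD2 libraries 1 and 2 alone.

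Of 17 CDK inhibitor and p53 target genes, limma called 0 by the rule in either direction, with a median of -0.40 (but 0.04 on the deposited scale). With all 8 libraries alone 4 were higher and 6 lower in limma, against 28.5% and 28.6% of all tested genes. At an unadjusted p under 0.05 the numbers were 4 and 7. EdgeR called 4 and 5 and DESeq2 4 and 6. Of 4 apoptosis genes limma likewise called 0 by the rule. With all 8 libraries alone 0 were higher and 2 lower, and edgeR and DESeq2 each called 2 lower. At an unadjusted p under 0.05, 1 was higher and 2 lower. BCL2L1, which encodes the survival protein BCL-XL, differed by -0.27 (SE 0.09) (but 0.17 as deposited and 0.02 on log2 of the linear value plus 1). The cochaperone gene BAG1 differed by -0.59 (SE 0.15) and the pore-forming BAX by 0.15 (SE 0.09), with adjusted p in limma of 0.0115 and 0.167, and 0.129 and 0.277 with near-duplicates averaged. The list median was -0.06 (but 0.39 on the deposited scale and 0.23 on log2 of the linear value plus 1).

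Of 13 chromatin and histone genes 5 rose and 0 fell by limma, with a median of 0.42. With all 8 libraries alone 3 were lower in limma, against 28.6% of all tested genes, and edgeR and DESeq2 each called 3 lower. At an unadjusted p under 0.05, 3 were lower. HIST1H2BH and HIST1H3H, core histone genes now named H2BC9 and H3C10, rose by 1.46 (SE 0.29) and 1.55 (SE 0.32). HIST1H2BH was measured at 11.06, 11.04, 11.20 and 11.20 in CTL and 12.04, 12.02, 12.97 and 13.33 in KD2, and HIST1H3H at 11.26, 11.24, 11.18 and 11.24 in CTL and 12.16, 12.16, 13.28 and 13.54 in KD2. KD2 was above CTL in all libraries of both, while the groups did not overlap in 57.3% of tested genes. Histone genes are near-identical copies of each other, so the probes may share targets and their values are uncertain. NSD1, a histone methyltransferase, was measured at 7.21, 7.35, 7.16 and 7.0 in CTL and 8.53, 8.33, 9.21 and 9.42 in KD2 and rose by 1.69 (SE 0.24). EP300, a histone acetyltransferase, rose by 0.66 (SE 0.06), from 9.53, 9.59, 9.61 and 9.58 in CTL to 10.16, 10.17, 10.30 and 10.31 in KD2.

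Of 23 DNA repair genes 8 rose and 2 fell, with a median of 0.30. FANCF, of the Fanconi anaemia core complex, was measured at 7.71, 7.81, 7.67 and 7.59 in CTL and 9.07, 9.01, 10.17 and 10.07 in KD2 and rose by 1.89 (SE 0.28). BRCA2, which acts in homologous recombination at broken DNA, was measured at 7.66, 7.72, 7.41 and 7.71 in CTL and 8.83, 8.68, 9.78 and 9.73 in KD2 and rose by 1.63 (SE 0.26). BRCA1, another gene of that pathway, rose by 1.31 (SE 0.14), from 8.03, 7.94, 7.85 and 7.92 to 9.0, 9.03, 9.55 and 9.43. In all 3 genes libraries 3 and 4 of KD2 were higher than 1 and 2.

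XRCC2 and XRCC3, also of homologous recombination, rose by 1.50 (SE 0.31) and 0.98 (SE 0.21). The mismatch repair gene PMS2 (0.72) and the helicase gene BLM (0.50) rose as well, named after their values were seen. PARP2, a poly(ADP-ribose) polymerase, was measured at 10.83, 10.82, 10.82 and 10.77 in CTL and 10.15, 10.19, 9.46 and 9.39 in KD2 and fell by 1.01 (SE 0.19), and the kinase gene ATM (-0.72) fell too.

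Of 14 EMT genes VIM, SNAI2 and CDH2 rose (21.4%) and SNAI1 fell (7.14%), with a median of -0.02 (but 0.43 on the deposited scale, 0.27 on log2 of the linear value plus 1 and 0.06 after quantile normalization). SNAI2, or Slug, a repressor of the same family as SNAI1, was measured at 9.96, 9.96, 10.12 and 9.99 in CTL and 10.93, 10.91, 11.28 and 11.79 in KD2 and rose by 1.22 (SE 0.19). CDH2, or N-cadherin, was measured at 8.52, 8.76, 8.58 and 8.66 in CTL and 9.13, 9.25, 9.30 and 9.69 in KD2 and rose by 0.71 (SE 0.13). The 2 Snail family members thus moved in opposite directions in KD2.

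Of 10 epithelial junction and apical genes CLDN3 and CD24 fell and limma called 0 rises by the rule. With all 8 libraries alone 3 were higher in limma, against 28.5% of all tested genes, and edgeR and DESeq2 each called 3 higher. At an unadjusted p under 0.05, 3 were higher. The median was -0.27 (but 0.18 on the deposited scale and 0.02 on log2 of the linear value plus 1). CLDN3, a tight junction claudin, was measured at 5.29, 5.37, 5.59 and 5.78 in CTL and 4.54, 4.06, 3.40 and 4.09 in KD2 and fell by 1.48 (SE 0.25), to a KD2 linear mean of 19.6, under the floor. CD24, a surface glycoprotein, was measured at 11.28, 11.37, 11.37 and 11.41 in CTL and 10.78, 10.75, 10.20 and 9.83 in KD2 and fell by 0.97 (SE 0.20). No KD2 library reached CTL for either gene, while the groups did not overlap in 57.3% of tested genes.

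Among 18 adhesion, matrix and coagulation genes 5 rose and EFNA3 fell, with a median of 0.30. Beside F3 and EFNA5 these were HEG1, NRCAM and CAV1. HEG1, a transmembrane protein of endothelial junctions, was measured at 8.54, 8.54, 8.51 and 8.52 in CTL and 9.90, 9.84, 10.08 and 9.83 in KD2 and rose by 1.38 (SE 0.07). NRCAM, a neuronal cell adhesion molecule, rose by 0.66 (SE 0.12), and CAV1, the coat protein of caveolae, by 0.58 (SE 0.06). EFNA3, an ephrin like EFNA5, was measured at 7.66, 7.70, 7.53 and 7.84 in CTL and 6.76, 6.93, 6.28 and 6.07 in KD2 and fell by 1.17 (SE 0.19). EFNA3 and EFNA5 thus lay on opposite sides of CTL.

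Part of the interferon response list rose, while SOCS1, an inhibitor of that response, fell. Interferons act through receptor-bound JAK kinases and STAT factors, which bind response elements near the start of their target genes. Of 6 tested genes CXCL10, OAS3 and ISG15 rose and SOCS1 fell, with a median of 0.83. CXCL10, a chemokine that draws T cells, was measured at 4.93, 4.70, 4.69 and 5.15 in CTL and 6.55, 6.36, 6.16 and 5.97 in KD2 and rose by 1.39 (SE 0.17). OAS3, which makes an activator of RNase L, was measured at 9.45, 9.41, 9.30 and 9.37 in CTL and 10.23, 10.14, 10.86 and 10.74 in KD2 and rose by 1.11 (SE 0.17). ISG15, a ubiquitin-like modifier, was measured at 10.96, 10.93, 10.97 and 10.86 in CTL and 11.73, 11.67, 12.19 and 12.40 in KD2 and rose by 1.07 (SE 0.16). KD2 lay above CTL in each of its libraries for all 3 genes, while the groups did not overlap in 57.3% of tested genes. Libraries 3 and 4 were the higher KD2 pair for OAS3 and ISG15 and the lower pair for CXCL10. The adjusted p in limma was 0.00041 for CXCL10, 0.00109 for OAS3 and 0.0011 for ISG15.

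The promoters of these genes are shown because the core of the interferon-stimulated response element can be read in them. The 250 bases before each start, from RefSeq on GRCh38.p14 and written 5′ to 3′ on the gene's strand, were searched on both strands for GAAA followed by any 2 bases and GAAA, with matches in capitals. They lie at chr4:76023498-76023747 (minus strand), chr1:1013247-1013496 (plus strand) and chr12:112938224-112938473 (plus strand).
CXCL10: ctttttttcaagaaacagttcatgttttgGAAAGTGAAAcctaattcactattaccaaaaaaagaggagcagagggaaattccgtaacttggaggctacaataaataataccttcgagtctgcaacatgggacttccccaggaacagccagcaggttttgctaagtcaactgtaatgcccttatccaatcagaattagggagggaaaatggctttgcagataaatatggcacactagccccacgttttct
ISG15: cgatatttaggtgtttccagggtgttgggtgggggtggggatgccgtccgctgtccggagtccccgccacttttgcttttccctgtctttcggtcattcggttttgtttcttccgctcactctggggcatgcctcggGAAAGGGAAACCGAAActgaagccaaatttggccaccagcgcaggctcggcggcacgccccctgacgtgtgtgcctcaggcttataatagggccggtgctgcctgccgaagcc
OAS3: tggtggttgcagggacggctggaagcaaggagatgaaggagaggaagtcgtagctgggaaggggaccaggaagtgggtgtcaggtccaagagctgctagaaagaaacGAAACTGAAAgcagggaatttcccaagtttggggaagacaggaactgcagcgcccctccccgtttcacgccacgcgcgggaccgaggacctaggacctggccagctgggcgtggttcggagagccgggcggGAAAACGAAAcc
CXCL10 held 1 match, ISG15 held 2 that overlap and OAS3 held 2. Such a match was held by 3.02% of all 35116 promoters in the RefSeq set, and by 4.38% of 434 promoters of tested panel genes. A match is a run of letters and not evidence that a factor binds there.

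The same search was made for TGANTCA, the AP-1 element, in 7 rising genes of the EMT and adhesion lists. F3 alone matched, against 6.57% of all promoters and 4.61% of those of tested genes. Its promoter at chr1:94541760-94542009 (minus strand) is shown with both matches in capitals.
F3: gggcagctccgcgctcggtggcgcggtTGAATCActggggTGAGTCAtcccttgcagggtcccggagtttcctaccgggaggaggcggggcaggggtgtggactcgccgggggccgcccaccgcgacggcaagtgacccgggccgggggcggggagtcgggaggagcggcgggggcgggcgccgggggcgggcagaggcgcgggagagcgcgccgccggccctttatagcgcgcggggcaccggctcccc
TGGGAA, the core read by the Notch partner RBPJ, was not found in the window of MAML2, the 1 rising Notch gene, and 20.8% of all promoters held it.

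Of 14 antigen presentation genes 4 fell in KD2, including HLA-B, HLA-C and HLA-E, and limma called 0 rises by the rule. The median was -0.27 (but 0.17 on the deposited scale and 0.02 on log2 of the linear value plus 1). With all 8 libraries alone 1 was higher in limma, and edgeR and DESeq2 each called 1 higher. At an unadjusted p under 0.05, 1 was higher. HLA-B was measured at 14.55, 14.56, 14.56 and 14.53 in CTL and 14.05, 14.05, 13.51 and 13.42 in KD2 and fell by 0.79 (SE 0.15). HLA-E, the ligand of the NKG2A receptor of natural killer cells, was measured at 13.35, 13.33, 13.34 and 13.34 in CTL and 12.62, 12.61, 11.90 and 11.95 in KD2 and fell by 1.07 (SE 0.18). HLA-C fell by 0.57 (SE 0.07). As deposited HLA-B differed by -0.35 and HLA-C by -0.12, with adjusted p in limma of 0.0545 and 0.111. HLA-B and HLA-C present peptides to T cells. The genes are closely related in sequence, so their probes may share targets.

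Of 17 JAK-STAT genes and cytokine receptors IL4R and IL20RB rose and TYK2, SOCS1, IL6R and LIFR fell, with a median of -0.51 (but -0.06 on the deposited scale). IL4R, a subunit of the interleukin 4 receptor, was measured at 8.28, 8.23, 8.16 and 8.18 in CTL and 9.36, 9.26, 9.72 and 9.89 in KD2 and rose by 1.34 (SE 0.14). IL20RB, a receptor subunit for interleukin 20 family cytokines, rose by 1.22 (SE 0.27). TYK2, a JAK kinase, was measured at 9.74, 9.82, 9.78 and 9.71 in CTL and 9.38, 9.29, 9.03 and 9.04 in KD2 and fell by 0.58 (SE 0.09). IL6R, the interleukin 6 receptor, fell by 0.63 (SE 0.13) and LIFR, the receptor of leukemia inhibitory factor, fell by 0.58 (SE 0.09). The falls of TYK2, IL6R and LIFR rested on the shift. As deposited they were -0.13, -0.19 and -0.14, with adjusted p in limma of 0.212, 0.235 and 0.175.

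Of 15 secreted cytokines and growth factors TNFSF10, PDGFB and STC1 rose and limma called 0 falls, with a median of 0.52. With all 8 libraries alone 2 were lower in limma, and edgeR called 2 lower and DESeq2 1. At an unadjusted p under 0.05, 3 were lower. TNFSF10, the death ligand TRAIL, was measured at 4.29, 4.03, 4.62 and 4.27 in CTL and 5.59, 5.28, 5.57 and 4.93 in KD2 and rose by 1.04 (SE 0.20), from a CTL linear mean of 19.1, under the floor. PDGFB, a platelet-derived growth factor chain, was measured at 7.21, 7.24, 7.49 and 7.19 in CTL and 8.02, 8.08, 8.01 and 7.84 in KD2 and rose by 0.71 (SE 0.10). Groups did not overlap in either, as in 57.3% of tested genes. Of 7 IL-1, TNF and NF-kB genes limma called 0 by the rule, and the median was 0.37. With all 8 libraries alone 2 were higher and 0 lower in limma, and edgeR and DESeq2 each called 3 higher. At an unadjusted p under 0.05, 3 were higher and 0 lower.

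Among checkpoint molecules and ligands for immune cells, 6 were tested, of which PDCD1LG2 rose and CD276 fell, with a median of 0.23. PDCD1LG2, the PD-1 ligand PD-L2, was measured at 7.25, 7.39, 7.45 and 7.12 in CTL and 8.31, 8.22, 8.37 and 8.65 in KD2 and rose by 1.08 (SE 0.12). CD276, or B7-H3, was measured at 12.94, 12.86, 12.83 and 12.84 in CTL and 12.44, 12.41, 12.34 and 12.40 in KD2 and fell by 0.47 (SE 0.05). The CD276 fall rested on the shift: as deposited it was -0.02, with an adjusted p in limma of 0.662. On the relative scale the groups did not overlap in either gene, as in 57.3% of tested genes.

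Of 15 luminal and hormone receptor genes ESR1 and CXXC5 rose and limma called 0 falls, with a median of 0.05. With all 8 libraries alone 4 were lower in limma, against 28.6% of all tested genes, and edgeR and DESeq2 each called 4. At an unadjusted p under 0.05, 4 were lower. ESR1, the estrogen receptor alpha gene, was measured at 6.93, 6.64, 6.76 and 7.0 in CTL and 7.47, 7.47, 8.08 and 8.18 in KD2 and rose by 0.97 (SE 0.19). CXXC5, a zinc finger protein, rose by 0.60 (SE 0.07). ESR1 libraries of KD2 all lay above those of CTL, while the groups did not overlap in 57.3% of tested genes.

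Of 14 basal genes KRT17, SFRP1, EGFR and CDC6 rose and FOXC1, PHGDH and CDH3 fell, with a median of -0.02 (but 0.42 on the deposited scale and 0.27 on log2 of the linear value plus 1). KRT17, a basal keratin, was measured at 3.46, 3.12, 4.07 and 3.19 in CTL and 4.59, 5.06, 4.72 and 4.89 in KD2. It rose by 1.36 (SE 0.24), from a CTL linear mean of 10.9, under the floor, and passed the filter through KD2, at a mean of 33.2. CDH3, or P-cadherin, was measured at 12.36, 12.31, 12.29 and 12.26 in CTL and 11.93, 11.92, 11.55 and 11.41 in KD2 and fell by 0.60 (SE 0.12). As deposited the CDH3 difference was -0.16, adjusted p 0.237 in limma. FOXC1 (-0.48), a forkhead factor, was named after its value was seen.

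Of 8 glycolysis and metabolism genes PHGDH, which starts serine synthesis, and SHMT2, which turns serine into glycine, fell. By the rule limma called 0 rises, with a median of -0.29 (but 0.15 on the deposited scale). With all 8 libraries alone 1 was higher in limma, and edgeR and DESeq2 each called 1 higher. At an unadjusted p under 0.05, 1 was higher. PHGDH was measured at 11.56, 11.63, 11.52 and 11.55 in CTL and 10.75, 10.70, 10.50 and 10.45 in KD2 and fell by 0.97 (SE 0.08). SHMT2 fell by 0.52 (SE 0.06), but differed by only -0.08 as deposited. Of 10 hypoxia and angiogenesis genes EGLN3 and PECAM1 rose and limma called 0 falls, with a median of 0.04 (but -0.01 with library medians). With all 8 libraries alone 4 were lower in limma, against 28.6% of all tested genes, and edgeR called 3 and DESeq2 4. At an unadjusted p under 0.05, 4 were lower.

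**Figure D3:**
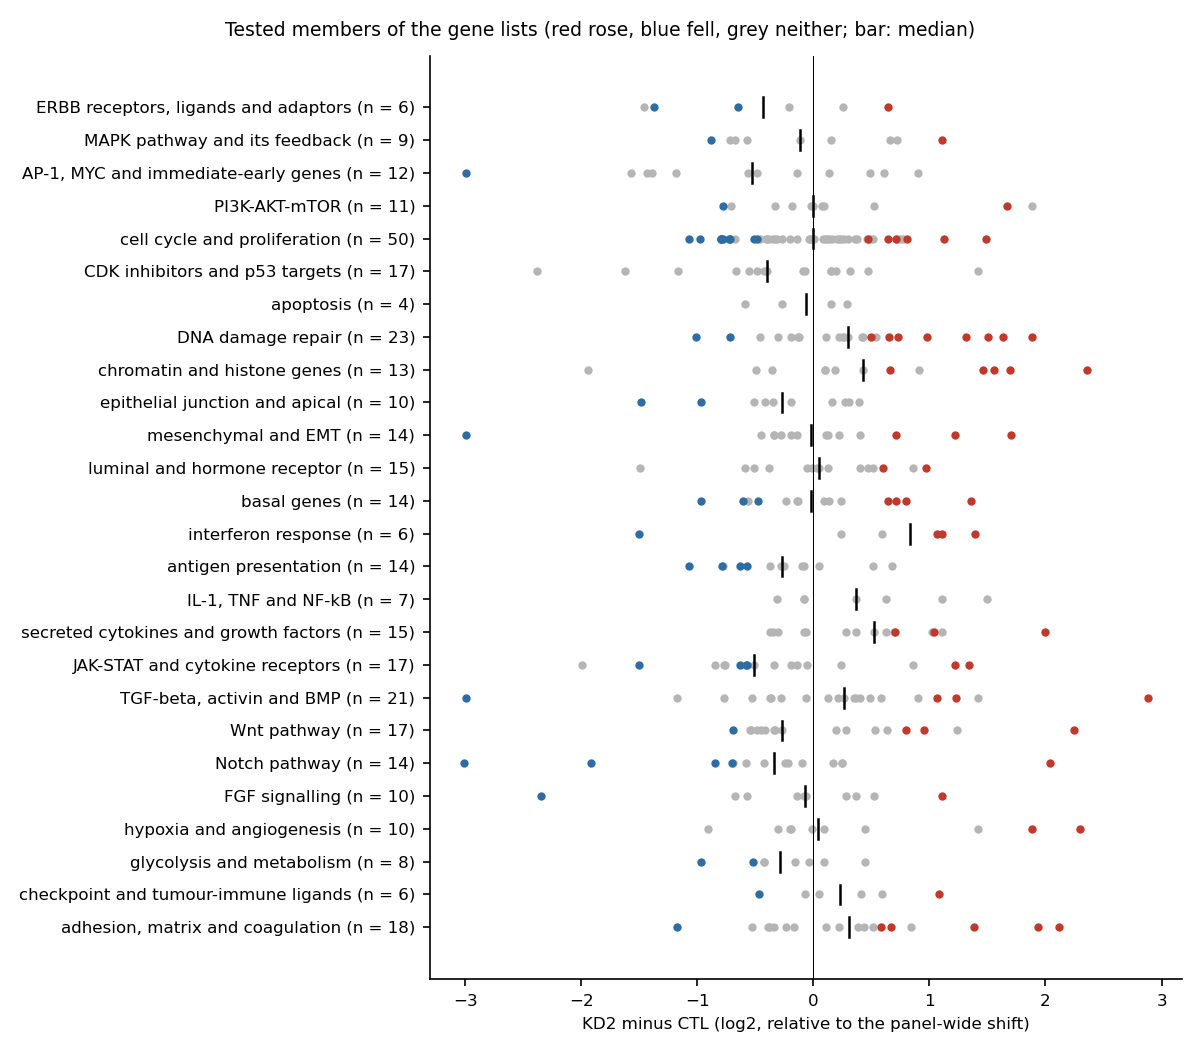
Difference between KD2 and CTL (log2, relative to the panel-wide shift) of each tested member of the 26 gene lists, with the number of tested members beside each name. Red points rose, blue points fell, grey points did neither, and the bar is the list median, which ran from -0.53 for the immediate-early genes to 0.83 for the interferon response.

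KD2 was then set beside KD1, the first knockdown line. Both were measured against the same CTL libraries, so values are given side by side. INHBA differed from CTL by 2.88 in KD2 and 3.29 in KD1, HIST1H1C by 2.35 and 2.40, and MAML2 by 2.04 and 2.02. DLL4 differed by -3.01 and -2.56, SNAI1 by -3.0 and -2.90, and GRB7 by -1.38 and -1.08. VIM differed by 1.70 in KD2 and -0.09 in KD1, and S100A7 by 2.29 and 0.54.

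Tested directly, KD2 against KD1 gave 0 calls (0%) when limma's threshold had to be passed with all 12 libraries of the knockdowns and CTL and with near-duplicates averaged. With all 12 libraries alone 64 genes were past it, and 67 had an unadjusted p under 0.05 with near-duplicates averaged. Same-numbered libraries of KD1 and KD2 deviated together, with a correlation across genes of 0.65 to 0.84. Libraries of unlike number were not compared. In both lines libraries 1 and 2 stood far apart from 3 and 4, so the correlation cannot single out pairing by number. With the replicate number as a block and the knockdown libraries alone, limma called 156 genes, 65 of them higher in KD2. That block counts near-duplicate libraries as separate, which were libraries 1 and 2 of both lines and 3 and 4 of KD1. With libraries 1 and 2 and libraries 3 and 4 as a block and near-duplicates averaged it called 30, of which 16 were higher in KD2. INHBA was lower in KD2 than in KD1 by the replicate block, with a difference of -0.40 and an adjusted p in limma of 0.00988 that was 0.112 with the averaged pairs. Of the 99 named genes 42 were past the threshold with the replicate block, and 12 of them also with the averaged pairs. The block was added after seeing the data, and the genes below were named after their values were seen.

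VIM was 1.79 higher in KD2 than in KD1 with the replicate block, adjusted p 0.000111 in limma, and 0.0159 with the averaged pairs. On the scale of the 12 libraries VIM lay at 11.01, 10.98, 10.99 and 10.90 in CTL, 10.87, 10.88, 10.93 and 10.83 in KD1 and 12.82, 12.83, 12.84 and 12.20 in KD2. KD1 libraries lay at or just under the CTL libraries for vimentin, and KD2 was above both in every library. S100A7 lay at 6.54, 6.70, 7.45 and 7.59 in KD1 and 8.64, 8.82, 9.26 and 8.56 in KD2, a difference of 1.75. Its adjusted p in limma was 0.0017 with the replicate block and 0.0276 with the averaged pairs.

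With the added blocks, CXCL10, ISG15 and OAS3 of the interferon list were also higher in KD2 than in KD1. CXCL10 differed by 1.03 between the lines, ISG15 by 0.80 and OAS3 by 0.73. Their adjusted p in limma was 0.00635, 0.000111 and 0.000543 with the replicate block, and 0.0371, 0.0159 and 0.0159 with the averaged pairs. Without a block and with near-duplicates averaged, limma gave 0.192, 0.349 and 0.352, not past the threshold. CXCL10 lay at 5.01, 4.77, 4.76 and 5.21 in CTL, 5.77, 4.88, 5.24 and 5.33 in KD1 and 6.62, 6.45, 6.22 and 6.04 in KD2. EREG, FHL1 and HEG1 were lower in KD2 than in KD1, with differences of -1.42, -1.17 and -0.65 with the replicate block. Their adjusted p in limma was 0.00076, 0.00293 and 0.0013 with that block, and 0.0159, 0.028 and 0.028 with the averaged pairs.

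**Figure D4:**
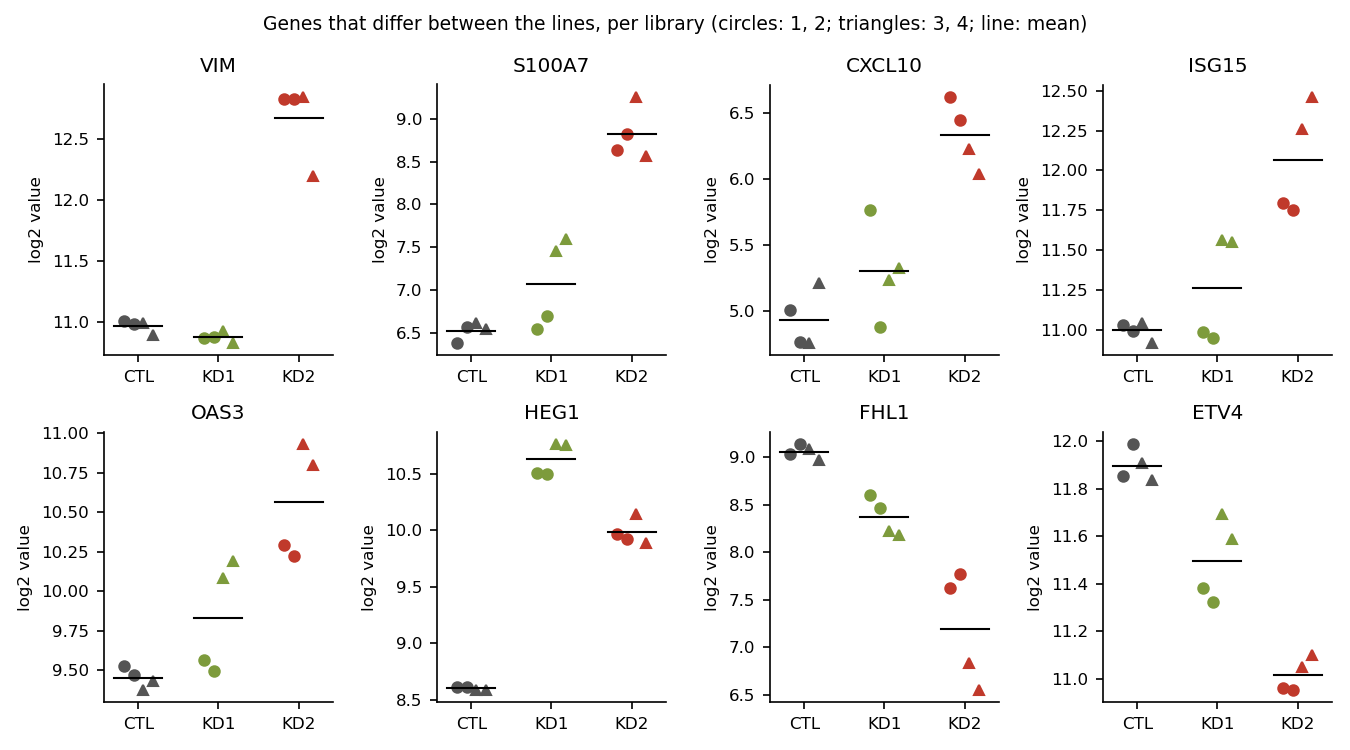
Log2 values (12-library scale) of genes that differed between KD2 and KD1 with the replicate block, 1 point per library in CTL, KD1 and KD2. VIM and S100A7 sit higher in KD2 than in both other groups, FHL1 and ETV4 sit lowest in KD2, and HEG1 in KD2 lies between CTL and KD1.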

How the data were processed

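RNA of JIMT-1 cells was measured on a fixed panel of 758 genes. The table deposited by the authors holds, per the file headers, log2 normalized counts and a linear block of normalized counts, which is a signal on the authors' scale. The blocks matched in the KD1 and KD2 libraries but not in CTL. There the median difference of the log2 block from log2 of the linear block was -0.18, -0.16, -0.13 and -0.15 in libraries 1 to 4. The reason is not given in the sources used here. The normalization, tools and genome build are not given in the sources used here. The linear values were whole multiples of a step per library, so that 100% of the counts behind them came out whole within 0.01. Gene symbols were compared with RefSeq names of GRCh38.p14, where 749 were current and 9 older.

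The members and gene lists were chosen with earlier results of these data known. Genes with a linear value above 20 in at least 3 of the 8 KD2 and CTL libraries were tested, and 189 were not. The log2 values were shifted by each library's median of ratios and fitted in R 4.3.3 with limma 3.58.1 (lmFit, eBayes with a trend), with Benjamini-Hochberg adjustment over 569 genes and a threshold of 0.05. Library pairs whose chi-square on recovered counts was under 2 per degree of freedom were averaged in a second fit. Signs were compared on 5 scalings: median of ratios, library medians, quantile normalization, the log2 block as deposited, and the linear block plus 1 on the log2 scale. EdgeR 4.0.16 and DESeq2 1.42.0 were run on the recovered counts as alternatives. The limma fit of 8 libraries was tested on simulated independent libraries. That simulation held no near-duplicates, so it does not cover the averaged fit or the full rule. KD2 against KD1 used all 12 libraries of KD1, KD2 and CTL.

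Named are the 12 largest rises and falls among called genes, up to 6 called members of each list, the epithelial markers, and up to 3 uncalled members of the ERBB, MAPK, AP-1, PI3K, cell cycle and apoptosis lists with the highest values. A few genes that would be named are not reported here. Same-numbered CTL and KD2 libraries did not deviate together, and the numbers were not used to pair them. For KD1 and KD2 they did, with correlations of 0.79, 0.81, 0.84 and 0.65, and the blocked values stand beside that comparison. Libraries of unlike number were not compared there, so the correlations do not single out pairing by number. Leaving out each replicate, other filters and pseudocounts, and fits of all 15 libraries were further alternatives.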

Additional observations from a re-analysis of the deposited data

Results flagged for a closer look

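Of 198 groups of 4 libraries examined over the 99 named genes, 4 held a library that stood apart from the others. The cutoff gives about 5% of groups by chance for independent values. These libraries include near-duplicates, so the number cannot be read against that share. These were CCNB1 in CTL replicate 1, at 14.02, MAML2 in KD2 replicate 1, at 8.24, PDGFB in CTL replicate 3, at 7.49, and VIM in KD2 replicate 4, at 12.13. For 12 named genes the effect in KD2 differed from that in KD1 with an adjusted p in limma under 0.05 both with the replicate number as a block and with the averaged pairs as a block. KD2 was higher than KD1 by 1.79 for VIM, 1.75 for S100A7, 1.03 for CXCL10, 0.80 for ISG15, 0.73 for OAS3, 0.55 for BMP7 and 0.42 for SFRP1. The difference was -1.42 for EREG, -1.17 for FHL1, -0.65 for HEG1, -0.48 for ETV4 and -0.25 for UBE2C.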

How the results depend on the processing

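With all 8 libraries 162 genes were higher and 163 lower. The numbers were 322 and 46 on the deposited scale, 264 and 74 on log2 of the linear value plus 1, and 74 and 74 with near-duplicates averaged. They were 5 and 0 with 2 samples against 2, with 98 lower at an unadjusted p under 0.05 in limma and 160 lower by edgeR on the 8 libraries. With libraries 1 and 2 and libraries 3 and 4 averaged, which was chosen after seeing the data, they were 32 and 19 in a fit of 12 libraries and 83 and 61 in a fit of 15. The deposited scale moves the median of all genes by 0.45, which changes the split. By the full rule 74 rose and 63 fell. The numbers were 223 and 24 on the deposited scale and 158 and 29 on log2 of the linear value plus 1, which hold 24 and 29 of the 63 falls and all 74 rises. A fit of all 15 libraries gave 132 rises. The averaged fit of 12 gave 32 and 19, of which 32 and 18 were among the genes called here, and 2 against 2 gave 5 and 0. KD2 replicates 1 and 2 alone gave 173 rises, and replicates 3 and 4 alone gave 206 rises and 129 falls. The cause of these shifts was not tested.

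Leaving out 1 replicate gave 0 to 84 rises and 0 to 70 falls. The lowest values came without KD2 replicate 3 (0 and 0) and without KD2 replicate 4 (1 and 0), which leave 2 samples a group after averaging. Over all 8 libraries without averaging, leaving out 1 gave 129 to 167 higher and 125 to 169 lower genes. The replicate number as a block, which the pairing check did not bear out for CTL and KD2, gave 138 higher and 129 lower genes. For KD2 against KD1 the block gave 156 calls and the averaged pairs 30. Of the called named genes, 151 results under an alternative lost the threshold and 2113 kept direction and side, and 76 of those lost were with 2 samples against 2. This tally uses the adjusted p of each setting's own limma, edgeR or DESeq2 fit and not the full rule. Leaving out KD2 replicate 3 thus counts as kept, though the rule called 0 rises and 0 falls there. The fit with near-duplicates averaged is kept by definition, since the calls required it. Among uncalled named genes the sign turned, with the threshold passed on 1 side of the comparison, for BCL2L1 (0.17 as deposited, 0.0197 on log2 of the linear value plus 1), CDH1 (0.25 and 0.0943), PIK3CA (0.43 and 0.27), CCNB1 (-0.11 with KD2 replicates 1 and 2 alone) and FOSL1 (0.35 with 3 and 4 alone). It turned with neither value past the threshold for AREG (0.23 as deposited) and, with KD2 replicates 1 and 2 alone, for RPS6KB2 (-0.0942), DUSP4 (-0.0160) and MYC (-0.00146), and for CCNB1, FOSL1 and PIK3CA under further settings. Genes under a linear value of 20 in 1 group, 6 of the rises and 2 of the falls, are imprecise in size. Such genes could pass the filter through the group where they were higher.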

Other observations

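Of the 248 tested genes in none of the lists, 23 rose and 23 fell in KD2, and the genes of this set described here were chosen after their values were seen. Signalling genes among the rises were ROCK2, a kinase of the actin cytoskeleton (1.48), the phospholipase C genes PLCE1 (1.33) and PLCB1 (1.28), the nerve growth factor receptor gene NGFR (1.48), the kinase MAP2K4 (1.13) and the pattern receptor TLR4 (1.17). The transcription factor genes PAX8 (1.49), HOXB13 (1.17) and EYA2 (1.10) rose, as did ADAM12 (1.52), a metalloprotease. POLQ (0.79) and MUS81 (0.60), which act on broken or stalled DNA, rose too. In KD1 against the same CTL libraries, ROCK2 differed by 1.38 and ADAM12 by 1.46, while TLR4 differed by -0.10, PLCE1 by 0.30 and NGFR by 0.46.

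The falls included the creatine kinase gene CKB (-1.11), the viral receptor and junction protein gene CXADR (-1.09), the chaperone gene HSPA2 (-1.08), S100A14 (-1.09) and the epithelial ETS factor gene ELF3 (-0.92). S100A14 fell while S100A7 of the same family rose. CKS1B (-0.92), which binds cyclin-dependent kinases, MAD2L1 (-0.52), of the spindle checkpoint, and MIS18A (-0.82), which helps load centromeric histones, also fell. CACNA2D3 (-1.09), a calcium channel subunit, and MMRN2 (-0.63), an extracellular protein, fell in KD2 and differed by -0.20 and 0.04 in KD1.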
